A study of Mus musculus with 9 samples.

Results

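The genes of G2 and mitosis were followed across 3 populations sorted on markers of neural progenitors from the newborn mouse brain. The set was a list of 46 gene symbols for proteins that drive the entry into mitosis, build the spindle, check its attachment and divide the cell. Of these, 45 were present among the 18329 genes of the expression table, and all 45 passed the filter on low values. Sgol1 was not found under that symbol. RefSeq lists it as a synonym of Sgo1, the shugoshin that protects cohesion at centromeres, which was present and is given separately. All cells came from the third ventricular zone (TVZ), the germinal layer around the third ventricle, of untreated Nestin-CFPnuc mice on a C57/BL6 background at postnatal day 1. In these mice the Nestin promoter drives a cyan fluorescent protein, so that CFP reports promoter activity and not Nestin protein. The cells were sorted by flow cytometry into CD133+, Nestin+ (CFP) and CD133+Nestin+ populations, with 3 libraries of each. The labels number the libraries of each population 1 to 3 by sort and give the same number as the passage, and they do not say whether cells sorted on 1 marker lacked the other or whether the libraries came from separate animals.

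Progression into mitosis depends on a wave of transcription that begins late in S phase and peaks in G2. The kinase Cdk1 bound to cyclin A or B starts mitosis, the spindle checkpoint holds the cell until every chromosome is attached, and the anaphase-promoting complex with Cdc20 then destroys securin and cyclin B so that the chromosomes separate. In quiescent cells and in G1 the DREAM complex, built on MuvB, represses many of these genes through the cell cycle genes homology region (CHR element), and in G2 MuvB with B-Myb and FoxM1 activates them, often together with NF-Y on CCAAT boxes. In the ventricular zone these transcripts are found in dividing radial glia and their progeny. Multiciliated ependymal cells have left the cycle, and whether they hold some of these transcripts was not tested here. In bulk libraries of this kind, fewer dividing cells, another mix of cells and less mitotic RNA per cell cannot be told apart.

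The promoters are shown first because they carry the sequence feature that most members share. RefSeq promoter windows (GRCm38.p6, 250 bases before to 50 after the annotated start) were matched for 37 of the 45 genes, with 40 windows in all. The CHR element was searched as TTTGAA, on the other strand TTCAAA, and the CCAAT box as CCAAT, on the other strand ATTGG; these letters do not overlap. A CHR element was found for 26 of the 37 genes (70.3%), against 14.2% of the 10733 tested genes with a window and 17.9% of all 32851 windows. With TTCGAA also counted it was found for 27 genes (73.0%), against 16.2% of tested genes with a window and 19.2% of all windows. All other counts and the capitals use TTTGAA and TTCAAA alone, so that a stretch without a CHR element may hold other forms of it. CCAAT boxes were found for 28 genes (75.7%), against 43.2% of tested genes with a window and 37.4% of all windows. Both stood in 1 window for 24 genes (64.9%), against 5.86%. Among 33 genes of DNA replication and S phase with a window, 3 (9.09%) had a CHR element and 21 (63.6%) a CCAAT box, so the share with a CHR element was lower in S phase genes than in the mitosis set by more than the share with a CCAAT box. Of the 37, 7 (Birc5, Knstrn, Mad2l1, Mybl2, Nuf2, Nusap1 and Pttg1) had neither motif in the window. The 8 sequences of 170 bases, from 140 before to 30 after the RefSeq start, are printed for the 4 genes that passed the test between populations (Nek2, Cdc20, Ccnb2 and Pttg1), for the 2 partners Cdk1 and Ccnb1, and for Top2a and Mki67, whose differences had opposite signs. Each is written 5′ to 3′ on the strand of the gene, with CHR elements and CCAAT boxes on either strand in capitals.
Nek2, chr1:191821333-191821502, plus strand: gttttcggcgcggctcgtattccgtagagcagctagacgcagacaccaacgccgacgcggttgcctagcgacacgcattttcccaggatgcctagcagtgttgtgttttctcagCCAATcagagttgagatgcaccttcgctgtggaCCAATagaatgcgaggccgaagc
Cdc20, chr4:118437314-118437483, minus strand: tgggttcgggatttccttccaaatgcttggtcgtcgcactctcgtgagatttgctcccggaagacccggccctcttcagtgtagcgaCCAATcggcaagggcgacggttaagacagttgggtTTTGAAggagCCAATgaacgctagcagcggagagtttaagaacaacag
Ccnb2, chr9:70421525-70421694, minus strand: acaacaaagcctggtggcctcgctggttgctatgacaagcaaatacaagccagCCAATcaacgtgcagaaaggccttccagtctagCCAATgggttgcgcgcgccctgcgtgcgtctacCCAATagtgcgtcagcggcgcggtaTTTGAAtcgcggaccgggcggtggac
Pttg1, chr11:43425952-43426121, minus strand: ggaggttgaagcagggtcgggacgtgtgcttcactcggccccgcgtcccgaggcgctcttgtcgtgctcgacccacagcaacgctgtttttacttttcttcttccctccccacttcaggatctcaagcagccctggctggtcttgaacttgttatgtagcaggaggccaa
Cdk1, chr10:69352883-69353052, minus strand: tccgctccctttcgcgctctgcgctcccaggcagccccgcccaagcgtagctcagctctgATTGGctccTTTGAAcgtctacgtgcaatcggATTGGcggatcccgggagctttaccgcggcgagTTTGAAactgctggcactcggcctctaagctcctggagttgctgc
Ccnb1, chr13:100786457-100786626, minus strand: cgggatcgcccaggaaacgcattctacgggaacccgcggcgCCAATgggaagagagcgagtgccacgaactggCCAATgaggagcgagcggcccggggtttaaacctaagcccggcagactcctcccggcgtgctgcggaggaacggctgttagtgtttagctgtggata
Top2a, chr11:99024160-99024329, minus strand: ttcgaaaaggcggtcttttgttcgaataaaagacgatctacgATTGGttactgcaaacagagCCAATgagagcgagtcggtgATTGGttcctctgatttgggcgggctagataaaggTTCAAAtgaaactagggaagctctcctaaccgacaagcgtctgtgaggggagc
Mki67, chr7:135716350-135716519, minus strand: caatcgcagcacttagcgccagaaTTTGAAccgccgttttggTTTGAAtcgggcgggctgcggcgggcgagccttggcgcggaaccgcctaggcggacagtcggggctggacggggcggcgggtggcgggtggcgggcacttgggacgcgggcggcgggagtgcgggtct
The stretches of Ccnb2 and Top2a each held 3 CCAAT boxes and 1 CHR element, and that of Cdk1 held 2 of each. Nek2 and Ccnb1 showed 2 CCAAT boxes and no CHR element, Cdc20 showed 2 CCAAT boxes and 1 CHR element, and Mki67 showed 2 CHR elements with 3 CCAAT boxes upstream, 2 of them outside the printed stretch and 1 cut by its edge. The Pttg1 stretch held neither motif. It is the only printed stretch that lies wholly inside the bounds that GENCODE M21 gives its gene. The RefSeq starts of Nek2, Cdc20, Cdk1 and Ccnb1 also lie inside the bounds of their genes. Among all member windows, 37 CHR matches lay from 179 bases before to 41 after the start, with a median of 5 bases before it, and 73 CCAAT matches lay from 228 before to 19 after, with a median of 71 before. Of 42 pairs of neighbouring CCAAT boxes, 11 were 30 to 35 bases apart.

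**Figure D1:**
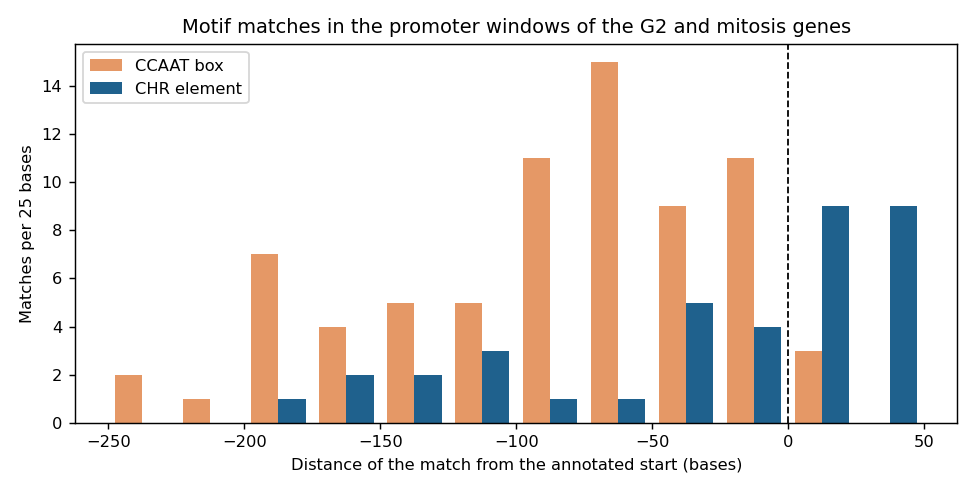
Positions of motif matches in the 40 promoter windows of 37 G2 and mitosis genes. The horizontal axis is the distance from the annotated start in bases, the vertical axis the number of matches per 25 bases, and the dashed line marks the start. CCAAT boxes have their median 71 bases before the start and CHR elements 5 bases before it.

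Levels are in CPM, reads per library total, as read from the steps in the values since no unit is stated. These steps put the libraries at about 29000000 to 35000000 reads each, and 1 read was worth 0.0286 to 0.0345 CPM, and a level of 3 reads, taken as the limit of detection, was 0.0858 to 0.103 CPM; this covers counting error only. The listed genes held 87.3% to 87.6% of the total in the libraries numbered 1 and 65.9% to 81.0% in the others. CD133+Nestin+ replicate 2 stood apart, with the 65.9% and with 82 genes below 0.01 CPM against 12 to 26 in the other 8 libraries. The counts of called genes of the set and of genes without overlap are given also without it, as are the orders of means. Most differences of single genes and most results of other lists are given only with it. Both sort markers followed the labels: Prom1, which encodes CD133, was at 169 ± 20.04 CPM in CD133+ against 51.04 ± 10.3 in Nestin+ and 147 ± 32.7 in CD133+Nestin+, and Nes at 51.2 ± 10.1, 173 ± 20.03 and 198 ± 22.6 CPM (mean ± SD, n = 3 libraries each, here and below). Radial glia and tanycyte markers (10 genes), which define the labelled tissue, were present in all 9 libraries. They summed to 6875, 2074 and 4512 CPM in CD133+ replicates 1 to 3, to 8008 to 14109 CPM in Nestin+ and to 3684 to 9436 CPM in CD133+Nestin+, and 4 of the 10 rose in Nestin+ against CD133+. The populations differed in their other cells: in Nestin+ against CD133+ all 10 ependymal, all 15 microglial and all 5 endothelial markers fell, while 6 of 8 oligodendrocyte precursor and 4 of 8 neuroblast markers rose. Over all genes tested, 9.42% were called lower and 2.45% higher in this comparison, by the test given below.

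Between Nestin+ and CD133+ libraries, 4 of the 45 genes passed the test and all 4 fell in Nestin+: the centrosome kinase Nek2, the anaphase activator Cdc20, the mitotic cyclin Ccnb2 and the securin Pttg1. None rose. The test was limma on log2(CPM + 1) over 16143 genes with Benjamini-Hochberg adjustment, and a gene was called at an adjusted p below 0.05. The 4 genes are 8.89% of the set, and 9.42% of all genes tested were called lower in the same comparison (11.9% in either direction), so the share of the set was near that of all genes. In the authors' deposited table the same 4 symbols had a false discovery rate of at most 0.05 in this comparison. At an unadjusted p below 0.05 there were 12 of the 45 (26.7%) against 23.0% of all genes. Groups that did not overlap were found for 9 genes on the lower side (20%, against 21.1% of all genes) and for 2 on the higher side (4.44%, against 11.8%). The differences ran from -3.18 for Nek2 to 0.99 for Mki67 on the log2(CPM + 1) scale, with 32 of 45 negative and a median of -0.39, against a median of -0.02 over all genes. Median centring of the libraries raised the median of all genes by 0.13 in this comparison and left 31 of 45 negative with a median of -0.26.

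The numbers of the libraries were taken to pair the samples, from correlations over all genes that were weak for number 3. With the number as a replicate block 7 genes fell in Nestin+ (background 13.1% lower): the same 4 with Cdk1, Top2a and Smc4. Leaving out CD133+Nestin+ replicate 2, which enters this comparison through the shared spread, also gave 7, with Cdk1, Aurka and Top2a in addition to the 4 (background 12.7% lower). With the block and without that library, 15 genes fell and Cdca3 rose (background 19.2% lower and 11.5% higher). The count was 2 without CD133+ replicate 2, CD133+ replicate 3 or Nestin+ replicate 2 (background 5.59%, 6.71% and 6.18% lower). Without Nestin+ replicate 3 only Nek2 and Cdc20 fell, and Mki67 rose (background 6.72% lower and 1.34% higher). Nek2 and Cdc20 passed in all 9 fits that left out 1 library.

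**Figure D2:**
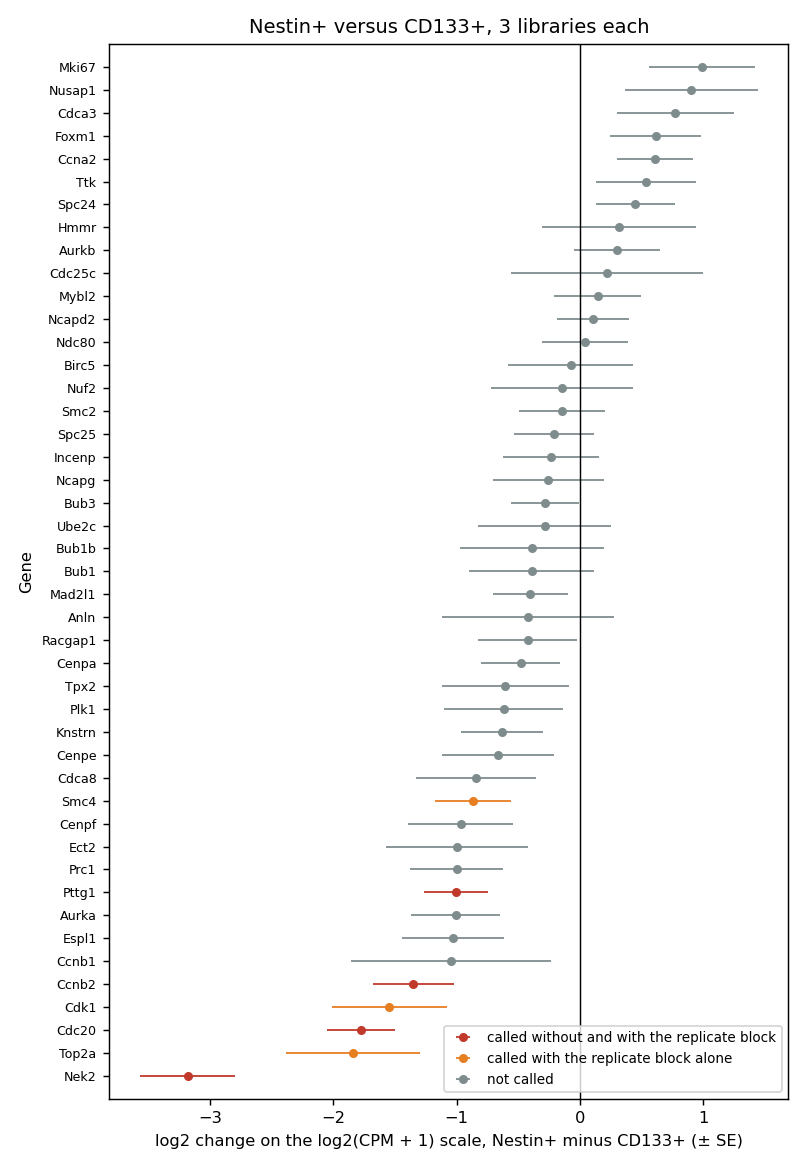
Difference between Nestin+ and CD133+ libraries for the 45 genes. Each point is the log2 change on the log2(CPM + 1) scale (horizontal axis, Nestin+ minus CD133+) with its SE, for 1 gene per row. Nek2 is at -3.18 and Mki67 at 0.99; the 4 genes in red passed the test without and with the replicate block, and the 3 in orange with the block alone.

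Among the 9 genes for entry into mitosis, 2 fell in Nestin+ (background 9.42% lower), with a median of -1.01 and 3 of 9 positive. This share rests on 2 genes. Nek2, a kinase that loosens the link between the 2 centrosomes before the spindle forms, lies on chromosome 1, 191821444 to 191833050 (GRCm38, plus strand). It was at 50.2, 148 and 59.5 CPM in CD133+ replicates 1, 2 and 3, at 8.72, 7.40 and 6.60 CPM in the Nestin+ replicates and at 25.8, 18.7 and 31.9 CPM in the CD133+Nestin+ replicates. The 3 populations did not overlap, with CD133+ highest and Nestin+ lowest. In Nestin+ against CD133+ Nek2 fell by 3.18 ± 0.39 (log2 ± SE, limma adjusted p = 0.000467). In CD133+Nestin+ it lay between: the difference to CD133+ was -1.58 ± 0.39 (limma adjusted p = 0.0639) and to Nestin+ 1.60 ± 0.39 (limma adjusted p = 0.0513). With the replicate block both of these passed (limma adjusted p = 0.0482 and 0.0385). Exons of Nek2 and the antisense gene Gm38037 share 298 bases, and the sources used here do not say whether the counting used strand.

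Ccnb2, cyclin B2 (chromosome 9, 70407692 to 70421547, minus strand), was at 31.2, 60.02 and 42.5 CPM in CD133+, at 22.4, 18.1 and 10.5 CPM in Nestin+ and at 25.7, 21.8 and 29.2 CPM in CD133+Nestin+ libraries. All CD133+ libraries stood above all others, while Nestin+ and CD133+Nestin+ overlapped. It fell by 1.35 ± 0.33 in Nestin+ against CD133+ (limma adjusted p = 0.0210), and this call was lost without CD133+ replicate 2, CD133+ replicate 3, Nestin+ replicate 2 or Nestin+ replicate 3, with differences of -1.58 to -1.06 over the 9 fits. A pseudogene, Ccnb2-ps, could share its reads. Cdk1, the kinase that B cyclins activate (chromosome 10, 69335146 to 69352938, minus strand), followed the same order: 110, 180 and 115 CPM in CD133+ against 65.7, 48.3 and 27.6 in Nestin+ and 82.5, 22.1 and 57.4 in CD133+Nestin+. CD133+ again lay above all other libraries. Its difference of -1.54 ± 0.46 in Nestin+ missed the threshold (limma adjusted p = 0.0549) and passed with the block (0.0342) and without CD133+Nestin+ replicate 1 (0.0243) or 2 (0.0103).

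Ccnb1, cyclin B1, was the less even of the B cyclins: 68.0, 155 and 82.0 CPM in CD133+ against 72.4, 57.7 and 22.6 in Nestin+ and 101, 7.01 and 70.4 in CD133+Nestin+. Its level ranged 22.1-fold over the 9 libraries, and the 3 populations overlapped. The lowest value was in CD133+Nestin+ replicate 2, and the pseudogene Ccnb1-ps could share its reads. The difference in Nestin+ was -1.05 ± 0.81 (limma adjusted p = 0.529). Aurka, the centrosomal Aurora kinase that helps activate Plk1, was at 26.2 to 42.7 CPM in CD133+ and at 10.3 to 19.6 CPM in Nestin+, which did not overlap (-1.01 ± 0.36, limma adjusted p = 0.108). Plk1, the polo kinase of mitotic entry, overlapped between the populations, with 24.7 to 38.0 CPM in CD133+ and 16.8 to 26.2 CPM in Nestin+.

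The other 3 genes of this group had positive differences in Nestin+, and none was called. Ccna2, cyclin A2, which acts from S phase into early mitosis, was at 6.92, 6.07 and 12.2 CPM in CD133+, at 11.8, 14.1 and 12.6 in Nestin+ and at 14.0, 17 and 20.1 in CD133+Nestin+. Its CD133+Nestin+ libraries all lay above its CD133+ libraries (0.98 ± 0.31, limma adjusted p = 0.168). Cdca3, an adaptor for the destruction of the Cdk1 inhibitor Wee1, was at 13.2 to 19.6 CPM in CD133+ and at 20.8 to 38.3 CPM in Nestin+, which did not overlap (0.77 ± 0.47, limma adjusted p = 0.394). Cdc25c, a phosphatase that activates Cdk1, was at 5.62 to 12.1 CPM in 8 libraries and at 0.0332 CPM, under the 3 read limit of 0.0997 CPM, in CD133+Nestin+ replicate 2 (0.22 ± 0.78 in Nestin+). Within 1 step of the cycle, cyclin A2 and the B cyclins thus had opposite signs in Nestin+, neither Ccna2 nor Ccnb1 passing the test.

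**Figure D3:**
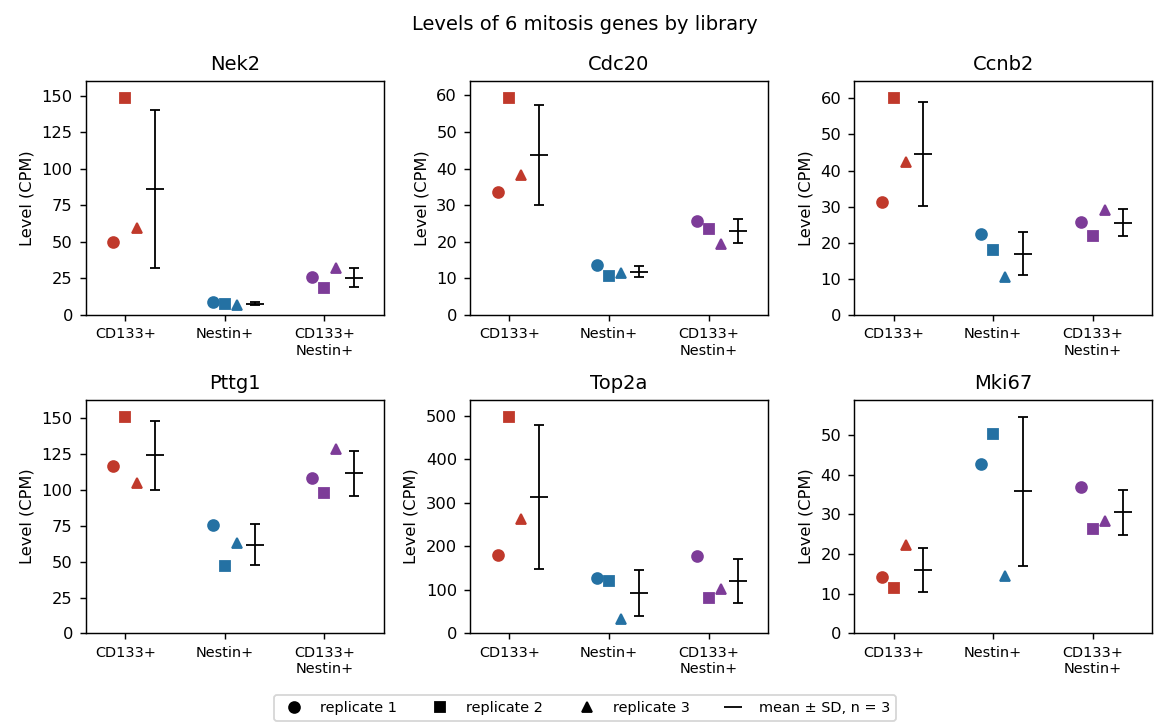
Levels in CPM (vertical axes, each from 0) of 6 genes in the 3 populations. Symbols are single libraries by replicate number, and bars beside them are the mean ± SD of 3. Nek2 and Cdc20 separate all 3 populations, and Mki67 is at 11.5 to 22.2 CPM in CD133+ where Top2a is at 180 to 498 CPM.

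Of the 4 genes of anaphase present, 2 fell in Nestin+ (background 9.42% lower), and all 4 differences were negative (median -1.02). This share also rests on 2 genes. Cdc20, which directs the anaphase-promoting complex to its targets (chromosome 4, 118432901 to 118437352, minus strand), was at 33.6, 59.2 and 38.3 CPM in CD133+, at 13.5, 10.5 and 11.3 in Nestin+ and at 25.7, 23.5 and 19.4 in CD133+Nestin+. As for Nek2, the populations did not overlap and CD133+Nestin+ lay in the middle. Cdc20 fell by 1.77 ± 0.28 in Nestin+ against CD133+ (limma adjusted p = 0.00175). The other differences, -0.87 ± 0.28 between CD133+Nestin+ and CD133+ and 0.90 ± 0.28 between CD133+Nestin+ and Nestin+, were not called (limma adjusted p = 0.170 and 0.131). Its exons share 53 bases with Elovl1 on the opposite strand.

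Pttg1, the securin that holds separase inactive until anaphase (chromosome 11, 43420250 to 43426251, minus strand), was at 117, 151 and 105 CPM in CD133+, at 75.8, 46.8 and 63.0 in Nestin+ and at 109, 97.8 and 129 in CD133+Nestin+. Here CD133+Nestin+ overlapped with CD133+, and Nestin+ stood below both. Pttg1 fell by 1.00 ± 0.26 in Nestin+ against CD133+ (limma adjusted p = 0.0283). The call was lost without any 1 of the 3 CD133+ libraries, Nestin+ replicate 2 or Nestin+ replicate 3 (differences of -1.16 to -0.82 over the 9 fits), and with median centring. Between CD133+Nestin+ and Nestin+ the difference was 0.86 ± 0.26 (limma adjusted p = 0.127). Espl1, separase itself, and Ube2c, a ubiquitin-conjugating enzyme of the complex, differed by -1.03 ± 0.42 (limma adjusted p = 0.155) and -0.29 ± 0.54. Sgo1, not counted in the set, was at 4.78 to 10.5 CPM in 8 libraries and at 0.497 CPM in CD133+Nestin+ replicate 2 (0.14 ± 0.67 in Nestin+).

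The 6 genes of chromosome structure held members with opposite signs, and none passed the test. Top2a, topoisomerase II alpha, which untangles sister chromatids (chromosome 11, 98992943 to 99024189, minus strand), was at 180, 498 and 262 CPM in CD133+, at 128, 119 and 32.4 in Nestin+ and at 177, 80.4 and 102 in CD133+Nestin+. All CD133+ libraries lay above the others. The difference in Nestin+ was -1.84 ± 0.54 (limma adjusted p = 0.0517, with the block 0.0254), and it passed without CD133+ replicate 1, Nestin+ replicate 1, CD133+Nestin+ replicate 1 or CD133+Nestin+ replicate 2. The small nucleolar RNA gene Gm23451 shares 122 bases with the exons of Top2a. Mki67, the coat protein of mitotic chromosomes and common marker of cycling cells (chromosome 7, 135689784 to 135716361, minus strand), had the opposite sign: 14.2, 11.5 and 22.2 CPM in CD133+ against 42.6, 50.3 and 14.5 in Nestin+ and 37.02, 26.4 and 28.3 in CD133+Nestin+. Nestin+ replicate 3 fell within the CD133+ range, and the 2 other Nestin+ libraries were above every other library. The difference was 0.99 ± 0.43 (limma adjusted p = 0.191; 1.53, adjusted p = 0.0203, without Nestin+ replicate 3). The ratio of Mki67 to Top2a, a pair chosen after the values were seen, was 0.0790, 0.0232 and 0.0846 in CD133+, 0.333, 0.421 and 0.448 in Nestin+ and 0.209, 0.328 and 0.278 in CD133+Nestin+. It overlapped in no pair of populations, and no test is given because of how it was chosen. Of the 3 ratios of genes examined, only Mki67 to Top2a separated all populations. The ratio of Nek2 to Plk1 overlapped between CD133+Nestin+ (0.681, 2.06 and 0.782) and CD133+ (2.04, 3.899 and 1.84). That of Cdc20 to Plk1 in CD133+Nestin+ (0.6799, 2.599 and 0.4758) overlapped with both other populations. In both of these ratios Nestin+ lay below CD133+ without overlap.

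The condensin subunits, which compact the chromosomes, were more even. Smc4 was at 47.3 to 103 CPM in CD133+ and at 32.7 to 50.3 CPM in Nestin+, with a difference of -0.87 ± 0.31 (limma adjusted p = 0.107, with the block 0.0209). Its partner Smc2 was at 33.7 to 55.6 and 22.4 to 53.5 CPM in the same groups (-0.15 ± 0.35), and Ncapg and Ncapd2 differed by -0.26 ± 0.45 and 0.11 ± 0.29.

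No gene of the spindle checkpoint (5 genes, median -0.39), the kinetochore (8, median -0.35), the chromosomal passenger complex (4, median -0.15) or the spindle and cytokinesis (7, median -0.42) passed the test in Nestin+ against CD133+. Mad2l1, the checkpoint protein that captures Cdc20, was at 29.5, 37.2 and 32.9 CPM in CD133+, at 29.3, 29.2 and 17.8 in Nestin+ and at 31.7, 16.4 and 28.0 in CD133+Nestin+ (-0.40 ± 0.31 in Nestin+, limma adjusted p = 0.521). All its Nestin+ libraries lay below CD133+, by a narrow margin. Bub3, which docks checkpoint kinases on kinetochores, was the steadiest gene of the set, with 88.1 to 168 CPM and a 1.90-fold range. Ttk, the kinase that starts the checkpoint, was positive in Nestin+ at 0.54 ± 0.41 (limma adjusted p = 0.513).

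At the kinetochore, Cenpf, a large protein that links it to microtubules and dynein, was at 38.8, 89.3 and 56.6 CPM in CD133+, at 37.6, 45.7 and 14.3 in Nestin+ and at 51.01, 37.3 and 34.2 in CD133+Nestin+ (-0.97 ± 0.43 in Nestin+, limma adjusted p = 0.202). The populations overlapped. The 4 subunits of the Ndc80 complex, which binds microtubules, did not share 1 sign: Ndc80 0.04 ± 0.35, Nuf2 -0.14 ± 0.58, Spc24 0.45 ± 0.32 and Spc25 -0.21 ± 0.32. In the passenger complex, which corrects faulty attachments, Cdca8 (borealin) was at 48.0, 84.5 and 55.3 CPM in CD133+, at 48.6, 34.7 and 22.2 in Nestin+ and at 55.6, 15.4 and 61.1 in CD133+Nestin+ (-0.84 ± 0.49 in Nestin+, limma adjusted p = 0.360). Its kinase Aurkb had the opposite sign at 0.30 ± 0.35, and the scaffold Incenp and survivin (Birc5) stood at -0.23 ± 0.39 and -0.07 ± 0.51.

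Prc1, which bundles microtubules at the spindle midzone, was at 60.6, 143 and 80.8 CPM in CD133+, at 57.5, 55.8 and 26.3 in Nestin+ and at 82.7, 61.2 and 86.4 in CD133+Nestin+. Nestin+ lay below both other populations in every library. The differences, -0.9998 ± 0.38 to CD133+ and 0.77 ± 0.38 from Nestin+ to CD133+Nestin+, were not called (limma adjusted p = 0.125 and 0.426). Its exons overlap Rccd1 on the opposite strand over 670 bases. Nusap1, a spindle protein that binds microtubules near chromatin, went the other way, with 7.94 to 21.1 CPM in CD133+ and 22.4 to 35.05 CPM in Nestin+ (0.90 ± 0.54, limma adjusted p = 0.375). Anln, the scaffold anillin of the contractile ring, was at 4.75 to 13.1 CPM in 8 libraries and at 0.0995 CPM, just under 3 reads, in CD133+Nestin+ replicate 2.

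The 2 transcription factors were low, and neither was called between populations in the main fit. With library weights Foxm1 was called higher in Nestin+ against CD133+ (0.78 ± 0.26, limma adjusted p = 0.0424, background 8.25% higher). Foxm1, which drives G2 transcription, was at 5.69 ± 0.823 CPM in CD133+ against 9.72 ± 4.14 in Nestin+ and 7.23 ± 2.39 in CD133+Nestin+. Mybl2, which encodes B-Myb, was at 2.55, 3.84 and 2.46 CPM in CD133+, at 2.08, 3.73 and 4.51 in Nestin+ and at 3.83, 7.32 and 5.56 in CD133+Nestin+ (0.14 ± 0.36 in Nestin+, limma adjusted p = 0.875). Scaled by exon length, Mybl2 had the lowest level of the set (0.861 CPM per kb over the 9 libraries), and Pttg1 the highest (49.6 CPM per kb), followed by Bub3, Top2a and Ccnb2 (19.7, 19.5 and 19.0 CPM per kb).

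**Figure D4:**
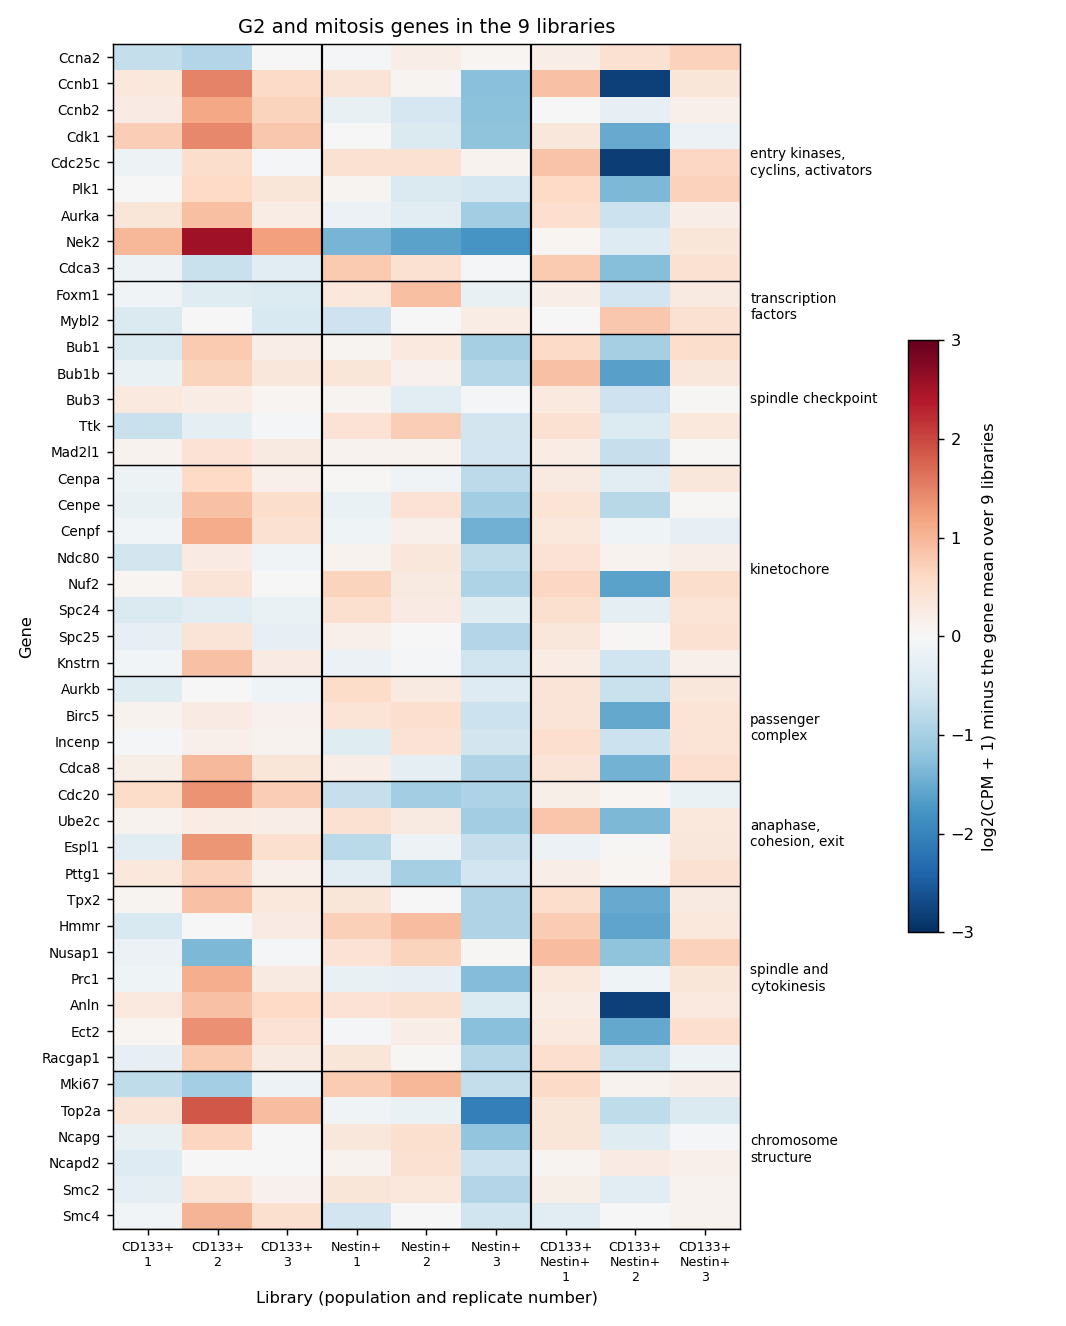
Levels of the 45 genes in 9 libraries, grouped by role. Colour is log2(CPM + 1) minus the mean of the gene over the 9 libraries, from -3 (blue) to 3 (red), with values beyond drawn in the end colour; black lines part populations and roles. CD133+ replicate 2 is red for most genes, and Nestin+ replicate 3 and CD133+Nestin+ replicate 2 are blue for most.

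CD133+Nestin+ libraries differed from neither other population by a called gene of the set. Against CD133+, 0 of 45 were called (background 2.42%), with 6 at an unadjusted p below 0.05 in limma (13.3%, against 12.6% of all genes) and 0 in the authors' deposited table. The median difference was -0.30 against -0.06 over all genes, and 5 genes were lower without overlap (Ccnb2, Cdk1, Nek2, Cdc20 and Top2a, 11.1% against 10.9% of all genes) and 3 higher (Ccna2, Mki67 and Ncapd2, 6.67% against 6.56%). With the block 1 gene, Nek2, was called (background 4.81%), a call lost with the block and without CD133+Nestin+ replicate 2 (limma adjusted p = 0.0974, 0 of 45 called, background 5.06%, 10 at an unadjusted p below 0.05), and without CD133+Nestin+ replicate 1 Cdk1 was (-1.85, limma adjusted p = 0.0496, background 2.94%). Against Nestin+, 0 of 45 were called (background 3.13%), with 3 at an unadjusted p below 0.05 in limma (6.67%, against 13.2%) and 0 in the authors' deposited table. Without overlap 4 were higher (Nek2, Cdc20, Pttg1 and Prc1, 8.89% against 11.1%) and none lower. Nek2 alone was called with the block (background 6.09%), and also without CD133+ replicate 1, CD133+ replicate 2 or CD133+Nestin+ replicate 2 (limma adjusted p = 0.0474, 0.0116 and 0.0490).

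Both of these comparisons moved with CD133+Nestin+ replicate 2. Without it, the median of the set against CD133+ moved from -0.30 to 0.05, with 24 of 45 positive in place of 13 and 0 called (background 2.28%, 7 at an unadjusted p below 0.05 in limma). Against Nestin+ the median moved from 0.12 to 0.49, and 44 of 45 genes were positive in place of 29, while 1 was called (Nek2, background 2.79%). The same shifts over all genes are not given here, so these shifts are not shown to be particular to the set. The genes higher without overlap against CD133+ went from 3 to 15 (33.3%, against 15.1% of all genes), with Cdc25c, Cdca3, Foxm1, Ttk, Nuf2, Spc24, Aurkb, Birc5, Incenp, Ube2c, Hmmr and Nusap1 added, and the 5 lower genes were the same (11.1%, against 14.8%). Against Nestin+ they went from 4 to 15 (33.3%, against 19.5%), with none lower (against 9.53%). With the block and without that library, Aurka, Nek2 and Prc1 rose in CD133+Nestin+ against Nestin+ (background 6.87% higher). The F test over the 3 populations called Nek2 and Cdc20 (background 9.50%; limma adjusted p = 0.00141 and 0.0053), with the block also Ccnb2 and Pttg1 (background 16.5%), and 5 genes without CD133+Nestin+ replicate 2 (background 13.0%).

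The 3 comparisons share libraries, so their order is given only as the order of the means. The orders over all genes are not given here, so these counts are not shown to be particular to the set. Over all genes, 9.42% were called lower and 2.45% higher in Nestin+ against CD133+. CD133+ had the highest mean for 28 genes, Nestin+ for 9 and CD133+Nestin+ for 8. The lowest mean was in Nestin+ for 26 genes, in CD133+ for 13 and in CD133+Nestin+ for 6. The full order from CD133+ through CD133+Nestin+ to Nestin+ held for 23 genes, among them all 4 that were called. Without CD133+Nestin+ replicate 2 the highest mean was in CD133+ for 22 genes, in CD133+Nestin+ for 21 and in Nestin+ for 2, and the lowest in Nestin+ for 31, in CD133+ for 14 and in CD133+Nestin+ for 0.

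Single libraries stood out in the set. CD133+ replicate 2 had the highest level of the 9 libraries for 24 of the 45 genes (53.3%), against 16.8% of all genes tested. Nestin+ replicate 3 had the lowest for 16 (35.6%), against 8.52%, and CD133+Nestin+ replicate 2 the lowest for 20 (44.4%), against 33.2%. Within its population, CD133+ replicate 2 was highest for 35 genes (77.8%, against 35.2% of all genes), Nestin+ replicate 3 lowest for 39 (86.7%, against 28.6%) and CD133+Nestin+ replicate 2 lowest for 38 (84.4%, against 52.8%). A few genes left this pattern: in CD133+ replicate 2, Mki67, Ccna2, Cdca3 and Nusap1 had their lowest level within the population. The members share libraries and often promoter motifs, so they are not independent points, and no test is given.

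**Figure D5:**
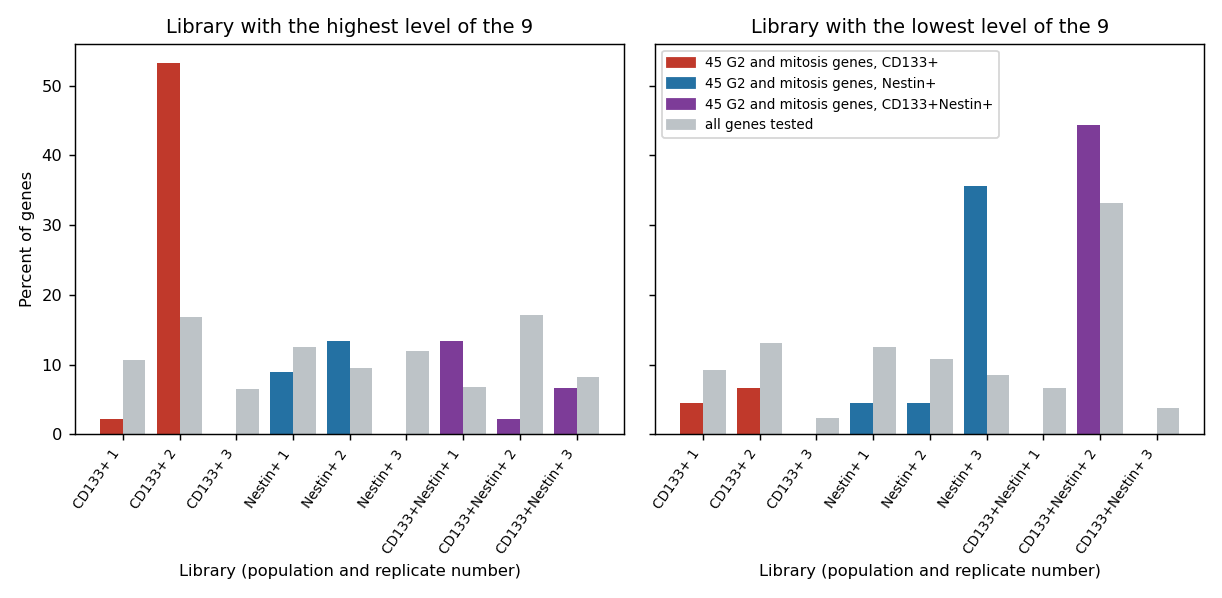
Share of genes (vertical axis, percent) for which each library (horizontal axis) has the highest level of the 9 (left) or the lowest (right). Coloured bars are the 45 G2 and mitosis genes, grey bars all 16143 genes tested. CD133+ replicate 2 is highest for 53.3% of the set against 16.8% of all genes, and Nestin+ replicate 3 is lowest for 35.6% against 8.52%.

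The summed level of the 45 genes was 1492, 2656 and 1778 CPM in CD133+ against 1456, 1349 and 779 CPM in Nestin+ and 1791, 917 and 1574 CPM in CD133+Nestin+. The sum of 44 genes of DNA replication and S phase, such as the Mcm helicase, went differently: 1414, 1131 and 1365 CPM, then 1935, 1550 and 1100 CPM, then 1843, 1046 and 1566 CPM. CD133+ replicate 2 thus had the highest mitosis sum of its population and the lowest S phase sum. The ratio of the 2 sums was 1.06, 2.35 and 1.30 in CD133+, 0.752, 0.870 and 0.708 in Nestin+ and 0.971, 0.877 and 1.01 in CD133+Nestin+, with no overlap between populations. The 6 genes of largest mean (Top2a, Bub3, Pttg1, Cdk1, Prc1 and Ccnb1) made up 41.5% of the summed level of the set. Without them the ratio was 0.558, 1.21 and 0.726, then 0.471, 0.590 and 0.431, then 0.582, 0.536 and 0.632, and the populations overlapped. These ratios were looked at after the values were seen and are a description.

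Sums of markers of other cells also differed between the populations. Within CD133+, only the ependymal sum was highest in replicate 2, as the mitosis sum was. Ependymal markers (10 genes) summed to 1443, 2928 and 1436 CPM in CD133+, to 234 to 291 CPM in Nestin+ and to 1286 to 1604 CPM in CD133+Nestin+, so the CD133+ library with the highest mitosis sum also had the highest ependymal sum. Microglial markers (15 genes) summed to 4587, 1638 and 2148 CPM in CD133+, to 97.9 to 225 CPM in Nestin+ and to 140 to 641 CPM in CD133+Nestin+. Endothelial markers (5 genes) summed to 451 to 887, 15.4 to 25.5 and 27.0 to 44.6 CPM. Oligodendrocyte precursor markers (8 genes) ran the other way, with 102 to 242, 892 to 1363 and 246 to 628 CPM. Mural cell and fibroblast markers (6 genes) summed to 738 to 1504, 200.1 to 277 and 116 to 175 CPM, erythroid markers (3 genes) to 377 to 698, 9.16 to 167 and 33.8 to 53.9 CPM, and neuroblast markers (8 genes) to 198 to 256, 444 to 573 and 277 to 336 CPM. CD133+ replicate 2, the library with the highest mitosis sum, had the lowest radial glia, oligodendrocyte precursor and neuroblast sums of all 9. None of these lists had a marker below 3 reads throughout a population. Their part in the differences of the mitosis genes was not tested.

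The sort and passage number was tested with the populations held apart. The F test over the 3 numbers called 0 of 45 genes (background 8.77%; 1 at an unadjusted p below 0.05 in limma, against 30.6% of all genes). Number 1 against the mean of 2 and 3 also called 0 (background 13.4%; 2 at an unadjusted p below 0.05, against 31.4%). These 2 were Espl1 (-0.66 ± 0.28, limma adjusted p = 0.141) and Smc4 (-0.50 ± 0.19, limma adjusted p = 0.108). In 35 of 45 genes number 1 was higher, with a median of 0.22 against 0.03 over all genes. Without CD133+Nestin+ replicate 2 this turned to 21 of 45 with a median of -0.01, and Espl1 and Smc4 were called lower in number 1 (background 12.2% lower). Without Nestin+ replicate 2, Nusap1 was called higher in number 1 (1 of 45, background 6.32% higher). In the same contrast 14 of the 15 microglial markers rose in number 1, and whether this bears on the mitosis genes was not tested.

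Genes around the set were examined through lists of the same pathway. Of 58 other mitosis genes, 1 rose and 2 fell in Nestin+ against CD133+, with a median of -0.07, and with the block 1 rose and 6 fell. Of all genes tested, 9.42% fell in this comparison, and with the block 13.1% fell and 6.06% rose, so these shares were not above those of all genes. Ckap2l, a spindle protein needed in dividing neural progenitors, fell by 2.72 ± 0.49 (limma adjusted p = 0.0042), from 135, 297 and 136 CPM in CD133+ to 42.2, 29.9 and 13.5 in Nestin+, and passed in all 9 fits that left out 1 library. Ncaph, a condensin subunit, fell by 1.49 ± 0.43 (limma adjusted p = 0.0474), a call lost without any 1 of the 6 CD133+ and Nestin+ libraries or CD133+Nestin+ replicate 3. Psrc1, a microtubule-binding protein, rose by 1.45 ± 0.41 (limma adjusted p = 0.0408), a call lost without CD133+ replicates 1 or 2, any 1 Nestin+ library or CD133+Nestin+ replicate 3. In 58 genes, 31 of the 48 with a promoter window (64.6%) had a CHR element.

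Genes of S phase leaned the other way from the set, with 31 of 44 positive in Nestin+ against CD133+ and a median of 0.30. Only 1 was called, and it fell (background 9.42% lower). This was Chaf1a, a subunit of the chromatin assembly factor that follows replication forks, which was at 18.3 to 20.8 CPM in CD133+ and 6.80 to 12.5 CPM in Nestin+ (-1.06 ± 0.28, limma adjusted p = 0.0321), a call lost without any 1 CD133+ library, Nestin+ replicate 1 or Nestin+ replicate 3. With the block 2 rose and 2 fell (background 6.06% higher and 13.1% lower). None of the 11 genes of DREAM and MuvB, the complexes that bind CHR elements, was called in the 3 comparisons (0 at an unadjusted p below 0.05 in limma). Their medians were 0.15, 0.03 and -0.09 in Nestin+ against CD133+, CD133+Nestin+ against CD133+ and CD133+Nestin+ against Nestin+.

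Among 13 G1 cyclins and CDK inhibitors, 2 fell in Nestin+ against CD133+, both inhibitors, and with the block 2 fell and 2 rose; 9.42% of all genes fell, and with the block 13.1% fell and 6.06% rose. Cdkn1a, which encodes p21 and halts the cycle, was at 109, 154 and 120 CPM in CD133+, at 14.1, 15.1 and 29.3 in Nestin+ and at 57.0, 50.9 and 45.7 in CD133+Nestin+. The populations did not overlap and had the same order as Nek2 and Cdc20. It fell by 2.70 ± 0.30 in Nestin+ against CD133+ (limma adjusted p = 0.000261). It fell by 1.29 ± 0.30 in CD133+Nestin+ against CD133+ (limma adjusted p = 0.0480), a call that held without Nestin+ replicate 3 and was lost without any 1 of the other 8 libraries. Against Nestin+ it rose by 1.41 ± 0.30 in CD133+Nestin+ (limma adjusted p = 0.0269), lost without CD133+ replicate 3, Nestin+ replicate 1, Nestin+ replicate 2, CD133+Nestin+ replicate 1 or CD133+Nestin+ replicate 3. Cdkn2b, which encodes p15, fell by 1.76 ± 0.40 in Nestin+ against CD133+ (limma adjusted p = 0.0152), a call lost without CD133+ replicate 3 or Nestin+ replicate 2.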

How the data were processed

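The 9 libraries were made from total RNA and read on an Illumina HiSeq, per the labels. Per the submitters' processing notes the tools were bcl2fastq, STAR 2.5.3a, Partek 8.0 and limma, with the mm10 build; read assignment, annotation and strand are not given in the sources used here. The deposited table held normalized values that were taken as CPM with an offset of 0.0001 from their steps; between 44.5% and 62.9% of low values were whole reads within 0.02 reads, so no count test was run. A table of the authors' comparisons holds a p-value and a ratio for each pair of populations, per the file headers; its values appear only where it is named.

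The analysis used log2(CPM + 1). A gene needed 1 CPM in 3 or more libraries, which kept 16143 and removed 2186. The populations were fitted by limma 3.58.1 (R 4.3.3), with a trend and robust variances (6 residual degrees of freedom; 4 in the model with the number), with Benjamini-Hochberg adjustment at 0.05. Each difference is given with its SE on that log2 scale, and understates the change of low genes. Nothing says that libraries came from separate animals, so p-values cover the spread among these samples only, and that spread may be technical. After the group means were removed, the 9 pairs of same-numbered libraries had correlations of 0.204 to 0.73 and the 18 pairs of unlike number -0.527 to 0.314. Pairs of number 1 had 0.582 to 0.73, and those of number 3 only 0.204 to 0.224. Nestin+ replicate 3 correlated more with CD133+Nestin+ replicate 2 (0.314) than with CD133+Nestin+ replicate 3 (0.224). The numbers were taken to pair the samples from these correlations, not from the labels. In simulated data for Nestin+ versus CD133+ (200 of 16143 genes changed), 65% of changes of log2 2 and 8% of log2 1 were recovered. Fewer genes were changed there than the 1915 called in the data, and the adjusted threshold depends on that number. These shares need not hold for the data.

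Values in every library were given for called genes (up to 4 of smallest p per comparison) and for the gene of smallest F test p in each role, and up to 3 genes of smallest p were eligible from each other list; Cdk1, Ccnb1, Ccna2, Mki67 and the promoters shown were chosen after values were seen. The members and lists were chosen with earlier results of these data known. Gene positions are from GENCODE M21 (GRCm38, the same build as mm10). The fits were repeated with a replicate block, with a pseudocount of 0.1, with no filter or one of 5 CPM, with median centring, quantile normalization or library weights, and without each library. Others were chosen after seeing the data: counts without overlap and orders of means without CD133+Nestin+ replicate 2, and fits of numbers 2 and 3 alone, and the block on the 8 libraries other than CD133+Nestin+ replicate 2. Exons of 14 members overlap another gene.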

Additional observations from a re-analysis of the deposited data

How the results depend on the processing

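For Nestin+ versus CD133+ the 4 called genes became 7 with the replicate block, 13 with library weights (12 lower and Foxm1 higher, background 25.9%), 16 with the block and without CD133+Nestin+ replicate 2 (background 30.6%), and 2 to 7 over the 9 fits leaving out 1 library; a pseudocount of 0.1, no filter, the 5 CPM filter, both other scalings and the libraries numbered 2 and 3 only gave 3 to 5. For CD133+Nestin+ versus CD133+ the 0 became 1 with the block (0 with the block and without CD133+Nestin+ replicate 2) and 0 to 1 leaving out 1 library. For CD133+Nestin+ versus Nestin+ the 0 became 1 (Nek2) with the block, a pseudocount of 0.1, the 5 CPM filter, median centring or library weights, 3 with the block and without CD133+Nestin+ replicate 2, and 0 to 1 leaving out 1 library. The F test over populations called 2 genes, and 4 with the block, 7 with weights (background 21.2%), 5 with the libraries numbered 2 and 3 only (background 8.02%), 14 with the block and without CD133+Nestin+ replicate 2 (background 25.8%), and 2 to 5 leaving out 1 library. The number tests called 0, and with weights 4 (F test, background 37.8%) and 3 (number 1 against 2 and 3, background 38.0%), with 0 to 2 for both leaving out 1 library. The causes were not tested. Alternatives were counted for the changes of named genes and, in 1 case, for the share of promoters with a motif. Of these 288, 245 kept the result, which for a change is its direction and side of the threshold. Another 11 lost the call, 31 gained it and 1 reversed. The reversed change was Mybl2 in Nestin+ versus CD133+, at -0.0327 without Nestin+ replicate 3 against 0.14 with all libraries. It ranged from -0.0327 to 0.388 leaving out 1 library. The replicate block changed no call among the 45 genes beyond those counted above. Changes of log2 1 were mostly missed in simulated data with 3 libraries a group and fewer changed genes than were called here. The genes not called are not shown to be alike. Cdc25c and Anln were under 3 reads in CD133+Nestin+ replicate 2, whose total was within the range of the other libraries; the cause was not tested.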
